A study of Mus musculus with 3 samples.

Results

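Glutathione transferases and 2 further enzymes of glutathione and quinone chemistry were followed across 3 arrays of mouse embryonic fibroblasts. The 10 genes, of 32540 genes or unnamed transcripts on the array and 20013 with a symbol, were Gsta1, Gsta2, Gsta3, Gsta4, Gstm1, Gstm2, Gstm5, Gstt1, Gpx3 and Nqo1. They were found through the 14 probes whose transcript accession belongs to one of these genes. The genes had been put together for the levels they show on these same 3 arrays, so all their levels and ratios below are a description, with no test.

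All cells were primary fibroblasts from E10.0 embryos of C57BL/6J mice lacking both Rb and ATM (Rb-/-;ATM-/-), so every group, the control included, carries both deletions. The groups were cells given a vector for a short hairpin RNA against Dnmt1, cells given a vector expressing ATM, and cells given an empty vector. Selection lasted 3 days in 4 ug/ml puromycin and was followed by 4 more days in culture. Each group was measured on 1 array, so there was no replicate culture to compare, no p-value can be given, and whether groups overlap cannot be judged.

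Glutathione transferases join the tripeptide glutathione to reactive, electron-poor compounds, including products of lipid oxidation, which can then be pumped out of the cell. Glutathione peroxidases use glutathione to reduce peroxides, and Nqo1 reduces quinones. Many of these genes are induced through NRF2 (Nfe2l2), a transcription factor that Keap1 holds in check and that binds antioxidant response elements with small Maf proteins. Some are also induced through the aryl hydrocarbon receptor, which binds xenobiotic response elements. Dnmt1 copies methylation of CpG dinucleotides onto new DNA strands, and the GPX3 promoter is often methylated in human tumours.

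The promoters are shown because the deposited arrays compare cells with and without a knockdown of an enzyme that acts on CpG dinucleotides. Of the 10 genes, 9 had a promoter in RefSeq (GRCm38.p6), a window of 300 bases from 250 before to 50 after the start, and Gstm1 had 2 windows. The next lines give 5 of them, 5′ to 3′ on the strand of the gene, with each CpG in capitals.
Gsta1 (chr9:78230419-78230718, plus strand): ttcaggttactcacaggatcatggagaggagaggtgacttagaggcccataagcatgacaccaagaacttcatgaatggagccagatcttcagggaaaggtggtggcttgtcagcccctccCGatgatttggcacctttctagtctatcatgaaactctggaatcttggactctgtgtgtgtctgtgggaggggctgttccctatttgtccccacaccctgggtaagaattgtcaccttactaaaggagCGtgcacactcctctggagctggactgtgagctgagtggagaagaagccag
Gsta2 (chr9:78347096-78347395, minus strand): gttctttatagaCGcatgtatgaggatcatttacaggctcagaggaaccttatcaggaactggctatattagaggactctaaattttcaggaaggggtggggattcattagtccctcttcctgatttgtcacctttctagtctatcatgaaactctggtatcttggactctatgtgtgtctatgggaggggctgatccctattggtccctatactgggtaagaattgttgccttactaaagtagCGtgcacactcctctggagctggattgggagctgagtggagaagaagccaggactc
Gsta3 (chr1:21240335-21240634, plus strand): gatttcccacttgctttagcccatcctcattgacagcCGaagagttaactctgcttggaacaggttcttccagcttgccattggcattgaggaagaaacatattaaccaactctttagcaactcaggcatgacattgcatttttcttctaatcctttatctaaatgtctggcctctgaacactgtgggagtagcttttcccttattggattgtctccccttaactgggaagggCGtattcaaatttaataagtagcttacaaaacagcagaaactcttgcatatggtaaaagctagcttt
Gpx3 (chr11:54902604-54902903, plus strand): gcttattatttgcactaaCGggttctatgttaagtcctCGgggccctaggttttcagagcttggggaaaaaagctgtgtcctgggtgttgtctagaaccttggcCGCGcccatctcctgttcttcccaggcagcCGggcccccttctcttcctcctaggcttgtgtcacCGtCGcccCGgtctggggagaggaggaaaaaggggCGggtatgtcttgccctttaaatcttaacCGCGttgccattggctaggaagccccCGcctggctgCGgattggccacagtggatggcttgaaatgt
Gstm5 (chr3:107895604-107895903, plus strand): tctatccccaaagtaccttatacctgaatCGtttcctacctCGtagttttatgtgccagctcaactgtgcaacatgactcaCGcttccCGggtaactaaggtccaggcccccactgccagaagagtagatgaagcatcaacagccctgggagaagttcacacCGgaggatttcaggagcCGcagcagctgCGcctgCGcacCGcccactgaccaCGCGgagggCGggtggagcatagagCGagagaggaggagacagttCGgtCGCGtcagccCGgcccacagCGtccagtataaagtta

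The windows of Gsta1, Gsta2 and Gsta3 held 2 CpG each, that of Gpx3 held 13 and that of Gstm5 held 18. Among the others, Nqo1 had 5, Gstm2 had 3, Gstt1 had 8, and the 2 windows of Gstm1 had 14 and 8. The median over 32841 mouse promoter windows was 7, with quartiles of 3 and 20. No methylation was measured in these samples.

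The antioxidant response element core, TGACNNNGC on either strand, was found in 2 of the 9 genes and in 12.4% of all windows. Gsta3 held it as TGACATTGC at positions -121 to -113 relative to the start, and Gstm5 as TGACCACGC at positions -42 to -34. The xenobiotic response element core, GCGTG on either strand, was found in 4 of the 9 genes (Gsta1, Gsta2, Gstm1 and Gstm5) and in 32.4% of all windows. In Gstm5 one GCGTG match overlapped the antioxidant core. The promoters of Gsta1 and Gsta2, both on chromosome 9, shared a run of 29 identical bases, cacctttctagtctatcatgaaactctgg, which began at position -118 in Gsta1 and -121 in Gsta2. A match is a description of letters in this window only.

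A signal that the scanner software did not mark as well above background is called dim. The lowest signal marked well above background was 25.1 on the Dnmt1 shRNA array, 32.7 on the array labelled ATM vector and 37.8 on the empty-vector array. Counts of genes well above background therefore rest on a different level for each array. Of 39404 probes, 55.0% to 59.6% were well above background per array, and spots of one probe had a median SD of 0.061 to 0.080 on the log2 scale. Different probes of one gene had ratios with a pooled SD of 0.21 (log2) between the Dnmt1 shRNA and empty-vector arrays and 0.33 between the ATM vector and empty-vector arrays. Both are technical spreads and not the spread between cultures. Dnmt1 itself had a processed signal of 956 on the Dnmt1 shRNA array, 3169 on the array labelled ATM vector and 4908 on the empty-vector array, a log2 ratio of -2.19 for the knockdown. The Rb1 probe read 782, 460 and 541 in this order of arrays, well above background on each. For Atm, 1 of 2 probes was dim throughout. The second Atm probe read 366, 409 and 430 in the same order of arrays, also well above background on each. Neither the Rb1 probe nor this Atm probe thus gave a check of the stated deletions. The Atm probe also does not tell the array labelled ATM vector from the rest. That array was alone on its slide and scan, so slide and group cannot be told apart for it. Its highest spike-in control signal was also apart, at 9649, while the Dnmt1 shRNA array had 68114 and the empty-vector array 71424. The part of this gap in the ATM vector ratios was not tested. Both comparisons use the same empty-vector array.

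Values are processed signals in intensity units before any scaling between arrays, and their size cannot be compared between probes. Small differences between arrays can change sign after scaling, as for Gstm5 with the Dnmt1 shRNA (7164 beside 7503, log2 ratio 0.10). Ratios are taken after each array was scaled to its 75th percentile (2061 on the Dnmt1 shRNA array, 2101 on the array labelled ATM vector, 2312 on the empty-vector array). With the Dnmt1 shRNA 4 of the 10 genes exceeded the empty-vector array by at least 2-fold, and 0 fell short of it by as much. For comparison, 7.68% of the 19359 measured genes were higher by this rule, 2.23% were lower and 9.91% differed either way. On the array labelled ATM vector 5 of the 10 exceeded the empty-vector array by at least 2-fold, and 2 (Gsta3 and Gpx3) fell short of it by as much, Gsta3 on its measured ratio and not on its bound. The shares of the 18463 genes measured there were 8.45% higher, 7.96% lower and 16.4% either way. Nothing is read from these counts, since the genes were chosen on the same arrays.

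**Figure D1:**
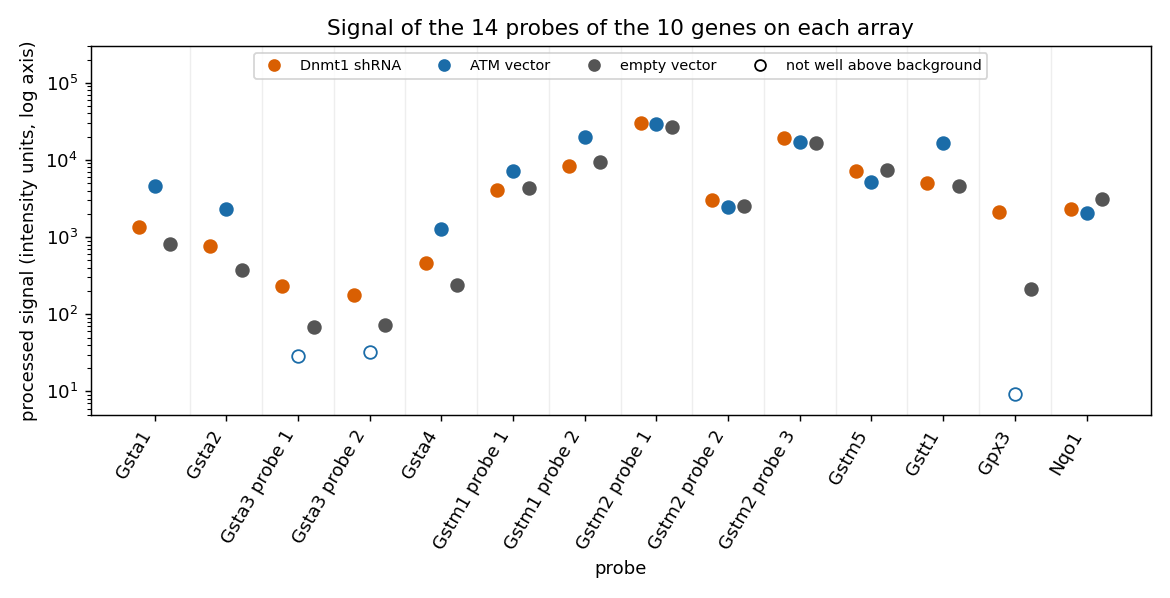
Processed signal (intensity units, log axis) of the 14 probes on the Dnmt1 shRNA array, the array labelled ATM vector and the empty-vector array, with 1 point per array and open points for signals not well above background. Gsta1, Gsta2 and Gsta4 were highest on the array labelled ATM vector, while Gsta3 and Gpx3 were highest with the Dnmt1 shRNA and not well above background with the ATM vector; heights of different probes cannot be compared.

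The alpha-class genes encode the transferases best known for the liver and for conjugating products of lipid oxidation. Gsta1 had a processed signal of 1363 on the Dnmt1 shRNA array, 4645 on the array labelled ATM vector and 804 on the empty-vector array. Gsta2, whose product is closely related to that of Gsta1, read 756, 2324 and 369 on the same 3 arrays. Both genes were therefore highest with the ATM vector, between the others with the Dnmt1 shRNA and lowest with the empty vector. After scaling, Gsta1 was 1.90-fold higher with the Dnmt1 shRNA (log2 ratio 0.93), just under the 2-fold limit, and 6.36-fold higher with the ATM vector (log2 ratio 2.67). Gsta2 was 2.30-fold (1.20) and 6.92-fold (2.79) higher in these comparisons.

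Gsta4, the transferase with high activity toward the lipid aldehyde 4-hydroxynonenal, was printed on the array in 10 spots. It read 460 ± 15.7 (SD, 10 spots) on the Dnmt1 shRNA array, 1287 ± 32.5 (SD, 10 spots) on the array labelled ATM vector and 237 ± 7.86 (SD, 8 spots) on the empty-vector array, where 2 spots marked as outliers were left out. Repeat spots of the 3 arrays did not overlap: they ran from 427 to 478 with the Dnmt1 shRNA, from 1216 to 1325 with the ATM vector and from 224 to 246 with the empty vector. They are repeats on 1 array and not separate samples. Gsta4 was 2.18-fold higher with the Dnmt1 shRNA (log2 ratio 1.12) and 5.98-fold higher with the ATM vector (log2 ratio 2.58). The Dnmt1 shRNA value dropped to 0.999 with quantile normalization and to 0.89 with scaling to the median, under the 2-fold limit.

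Gsta3, the mouse transferase that detoxifies the epoxide of aflatoxin B1, had a different order. The first of its 2 probes read 233 with the Dnmt1 shRNA, 28.8 with the ATM vector and 68.6 with the empty vector. The second probe read 176, 32.4 and 72.1 on the same arrays. Both probes were highest with the Dnmt1 shRNA, and neither was well above background on the array labelled ATM vector. The probes gave log2 ratios of 1.93 and 1.46 for the Dnmt1 shRNA over the empty vector, a gene value of 1.69 or 3.23-fold. Under other ways of processing this gene value ran from 1.10 to 1.93. With the ATM vector the measured log2 ratio was -1.06, but since the signal there is only a bound, Gsta3 was at least 1.96-fold lower than with the empty vector. A bound sets the brighter array's value against the detection level of the dim array (its lowest signal marked well above background), or against the probe's own signal there where that is larger. Bounds therefore hold for the main processing only. That of Gsta3 was 1.86-fold with a common detection level and 1.24-fold with normexp background correction.

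The 4 alpha-class genes thus ran from 0.93 to 1.69 (log2) with the Dnmt1 shRNA and from -1.06 to 2.79 with the ATM vector. Gsta3 lies on chromosome 1, apart from the chromosome 9 cluster that holds the other three.

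The mu-class genes encode a second cytosolic family of transferases, of which Gstm1, Gstm2 and Gstm5 were followed. These members ran from 0.02 to 0.37 (log2) with the Dnmt1 shRNA and from -0.39 to 1.02 with the ATM vector. Other mu-class genes are given below with their cluster, and some lay outside these ranges, such as Gstm7 at 0.83 and 1.09. Gstm1 had 2 probes that read 4106 and 8295 with the Dnmt1 shRNA, 7140 and 19805 with the ATM vector, and 4382 and 9530 with the empty vector. Both probes were highest with the ATM vector, and the other arrays lay close together. The gene value was 0.02 (log2) for the Dnmt1 shRNA and 1.02 for the ATM vector. The ATM vector value stood just past the 2-fold limit, with the first probe at 0.84 and the second at 1.19. It dropped to 0.99 with quantile normalization and to 0.98 with scaling to the median.

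Gstm2 had 3 probes. The first read 30147 with the Dnmt1 shRNA, 28913 with the ATM vector and 26812 with the empty vector. The second read 3063, 2476 and 2552, and the third 19015, 17228 and 16722 on the same arrays. All 3 probes were highest with the Dnmt1 shRNA, by log2 ratios of 0.33, 0.43 and 0.35, and the gene value was 0.37. Scaling to the median of all probes gave 0.13 for the gene, under the spread between probes. Its value with the ATM vector was 0.17, which is less than the spread between probes of one gene.

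Gstm5, a mu-class gene known for its expression in brain and testis, read 7164 with the Dnmt1 shRNA, 5219.9 with the ATM vector and 7503 with the empty vector. Its log2 ratio was 0.10 for the Dnmt1 shRNA, under the spread between probes, and -0.39 for the ATM vector. The sign of the small Dnmt1 shRNA ratios of Gstm1 and Gstm5 depended on the scaling, since scaling to the median of all probes gave -0.22 for Gstm1 and -0.14 for Gstm5, and the brighter probe of Gstm1 alone gave -0.03. That scaling moved the median of all genes in this comparison to -0.25, against -0.02 with the 75th percentile.

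Gstt1, a theta-class transferase that acts on small halogenated compounds, read 5019 with the Dnmt1 shRNA, 16720 with the ATM vector and 4623 with the empty vector. It was high on the array labelled ATM vector and similar on the other arrays. Its log2 ratio was 0.28 for the Dnmt1 shRNA, or 0.05 with scaling to the median, and 1.99 for the ATM vector, or 3.98-fold.

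Gpx3, the secreted selenium-dependent glutathione peroxidase of plasma, which is made mainly in the kidney, had the widest range of the 10 genes. It read 2099 on the Dnmt1 shRNA array, 9.40 on the array labelled ATM vector and 215 on the empty-vector array. The signal with the ATM vector was not well above background. Gpx3 was 11.0-fold higher with the Dnmt1 shRNA than with the empty vector (log2 ratio 3.45). The array labelled ATM vector was at least 5.98-fold lower than the empty-vector array, and the measured log2 ratio was -4.38.

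Nqo1, the quinone reductase often used as a readout of NRF2, read 2318 with the Dnmt1 shRNA, 2065 with the ATM vector and 3114 with the empty vector. After scaling to the 75th percentile it was the one gene of the 10 below the empty-vector array in both comparisons, and with scaling to the median Gstm5 was so too. Its log2 ratio was -0.26 for the Dnmt1 shRNA, or -0.50 with scaling to the median, and -0.45 for the ATM vector. Both are under 2-fold and slightly past the spread between probes.

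**Figure D2:**
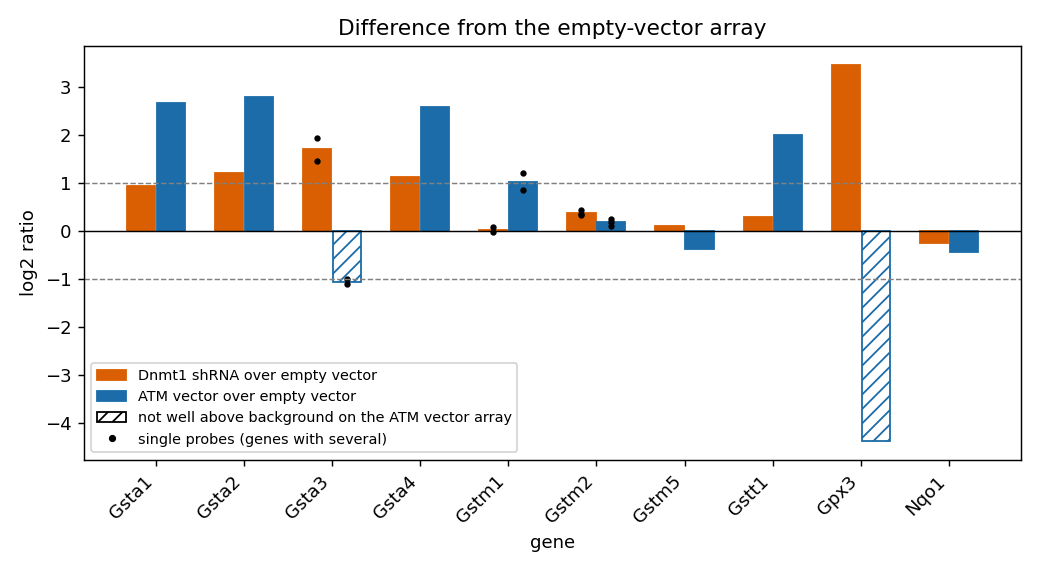
Log2 ratio of the Dnmt1 shRNA array and of the array labelled ATM vector over the empty-vector array for each gene, as bars, with dots for single probes where a gene has several and dashed lines at 2-fold. Hatched bars mark Gsta3 and Gpx3 with the ATM vector, where the signal was not well above background; Gpx3 stood at 3.45 with the Dnmt1 shRNA and Gsta2 at 2.79 with the ATM vector.

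Over the 10 genes the median log2 ratio was 0.65 with the Dnmt1 shRNA, where all genes measured had a median of -0.02, and 9 of the 10 genes were above 0, though Gstm1 and Gstm5 were not with scaling to the median. With the ATM vector the median was 0.60, beside 0.05 over all genes, and 6 of the 10 were above 0. All 10 genes were well above background on both arrays of the first comparison, and 8 on both arrays of the second. In bulk RNA, fewer cells of a type and less RNA per cell cannot be told apart.

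Genes near the members on the chromosome were read in the gene order of GRCm38.p6. In the alpha cluster on chromosome 9, Gsta4, Gsta1 and Gsta2 lie in this order, with Gm10639 between Gsta1 and Gsta2. One probe of Gm10639 read 1653 with the Dnmt1 shRNA, 4999 with the ATM vector and 887 with the empty vector, the same order of arrays as for Gsta1. Its log2 ratios were 1.06 and 2.63. The other probe of Gm10639 read 144 with the Dnmt1 shRNA and was not well above background on the other arrays. Probe sequences were not used here, so signal from near-identical neighbours in the alpha and mu clusters was not checked.

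Just outside the transferases of chromosome 9, Cilk1 had log2 ratios of -0.02 with the Dnmt1 shRNA and 0.32 with the ATM vector. On the other side Dppa5a was not well above background with the empty vector, and was at least 1.14-fold and at least 1.89-fold higher with the Dnmt1 shRNA and the ATM vector. Between Gm10639 and Gsta2, Omt2a and Omt2b were dim on every array. Both ratios of Cilk1 are within the spread between probes of one gene.

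In the mu cluster on chromosome 3 the genes run Gstm5, Gstm7, Gstm6, Gstm3, Gstm2, Gstm1 and Gstm4. Gstm7 had log2 ratios of 0.83 with the Dnmt1 shRNA and 1.09 with the ATM vector, and Gstm3 of 0.34 and 0.44. Gstm6 was not well above background with the empty vector and was at least 1.84-fold higher with the Dnmt1 shRNA and at least 1.95-fold higher with the ATM vector. Of the 2 probes of Gstm4, 1 was dim with the ATM vector, and the other stood at 0.51 there. Ampd2, the gene beyond Gstm4, stood at -0.03 and -0.13.

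**Figure D3:**
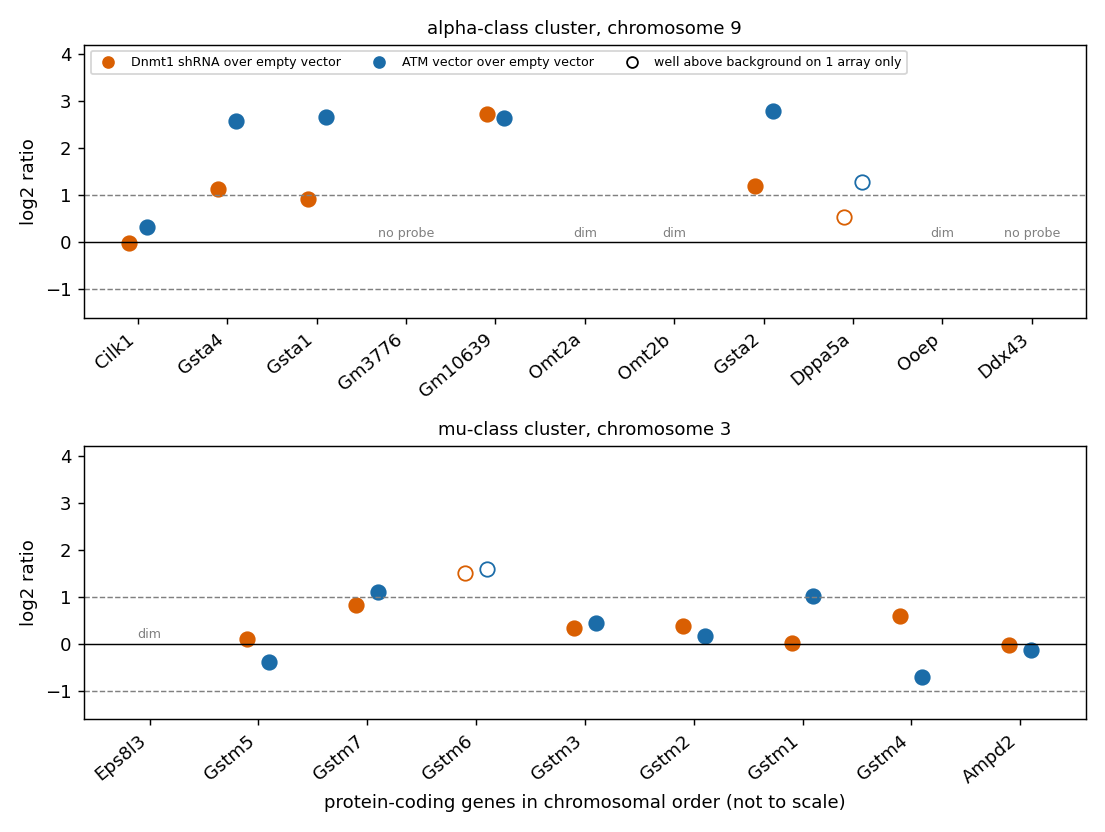
Log2 ratio over the empty-vector array of the genes of the alpha cluster (top) and the mu cluster (bottom) in chromosomal order, with 1 point per gene for the Dnmt1 shRNA array and 1 for the array labelled ATM vector. Open points are well above background on 1 array of the pair only, and "dim" marks genes with no array well above background; Gsta4, Gsta1 and Gsta2 lie at 2.58, 2.67 and 2.79 with the ATM vector, and the Dnmt1 shRNA point of Gm10639 is raised by a probe that was dim with the empty vector. The ATM vector point of Gstm4 averages in a probe that was dim with the ATM vector.

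Gstt3, the theta-class gene next to Gstt1 on chromosome 10, had log2 ratios of 0.52 with the Dnmt1 shRNA and 1.46 with the ATM vector. Ddt, on the far side of Gstt3, encodes a tautomerase and stood at -0.21 and 1.15. Next to Gpx3 on chromosome 11, Hint1 stood at -0.04 and 0.56 and Tnip1 at 0.33 and 0.06. Next to Gsta3 on chromosome 1, Tmem14a stood at 0.65 and -0.02. Neither neighbour of Gpx3 was at least 2-fold different in either comparison.

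The genes whose 2 ratios lay nearest to those of Gsta4, among 11162 genes well above background on all 3 arrays, were Atp2a3, C1ql3 and Sdsl, at Euclidean distances of 0.10, 0.15 and 0.16 (log2). Nearest to Gsta3 were Itga11, Plscr2 and Kazald1, at 0.05, 0.13 and 0.14, although Gsta3 itself was not well above background with the ATM vector. These distances rest on 3 arrays.

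The other glutathione transferases on the array numbered 19, of which 16 were measured in the Dnmt1 shRNA comparison. Past 2-fold stood 4 of these, all of them higher, where 7.68% of all measured genes were higher. The median log2 ratio was 0.23, which turned to -0.01 with scaling to the median. Mgst2, a microsomal transferase, read 1021 with the Dnmt1 shRNA, 291 with the ATM vector and 215 with the empty vector, a log2 ratio of 2.42 with the Dnmt1 shRNA. Gstk1, the kappa-class enzyme of mitochondria and peroxisomes, read 880.4, 88.8 and 243. Its log2 ratios were 2.03 with the Dnmt1 shRNA and -1.31 with the ATM vector, the same order of the 3 arrays as Gsta3 and Gpx3. Gstp3 and Gstm6 completed the 4 and were not well above background with the empty vector, with Gstp3 at least 1.88-fold and Gstm6 at least 1.84-fold higher. Both were thus counted on their measured ratios and not on their bounds.

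On the array labelled ATM vector 15 of the other transferases were measured. The median was 0.35, with 5 past 2-fold on the higher side and 2 on the lower. Over all measured genes the shares were 8.45% and 7.96%. Gstt3 and the microsomal transferase Mgst3, at 1.46 and 1.44, were highest among those measured on both arrays. Gstm7, Gstm6 and the omega-class Gsto2 (1.05) were the rest, and Gsto2 is named after its value was seen. Gstm6, at least 1.95-fold higher by its bound, was again counted on its measured ratio. Mgst1, a microsomal transferase, was lowest at -1.83, followed by Gstk1. Among 5 other glutathione peroxidases measured, 0 were at least 2-fold different in either comparison, with medians of -0.06 and 0.39. Gpx4, which protects membranes from lipid peroxides, stood at 0.89 with the ATM vector.

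Of 30 other NRF2 target genes, the Dnmt1 shRNA array had 2 past 2-fold, both higher, and a median of -0.14. The aldo-keto reductase Akr1c13 stood at 3.75 and the aldehyde oxidase Aox1 at 1.02. The array labelled ATM vector had 2 higher, 1 lower and a median of -0.07. The autophagy adaptor Sqstm1 stood at 1.23, Akr1c13 at 1.08 and the carbonyl reductase Cbr1 at -2.12. The rest of the list was under 2-fold in each comparison, as Nqo1 was.

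Of 12 regulators of NRF2, 1 stood past 2-fold with the Dnmt1 shRNA, on the lower side, and the median was -0.09. For the ATM vector the count was 2, both lower, and the median -0.07. Bach2, a repressor that binds the same elements, was well above background with the empty vector only, and was at least 2.67-fold lower with the Dnmt1 shRNA and at least 2.09-fold lower with the ATM vector. The small Maf gene Maff stood at -1.36 with the ATM vector. Keap1 stood at -0.72 with the ATM vector. Nfe2l2 itself, named here after its values were seen, read 16274 with the Dnmt1 shRNA, 14118 with the ATM vector and 18245 with the empty vector, log2 ratios of 0.00 and -0.23.

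Among genes of glutathione synthesis and turnover, 3 of 20 stood past 2-fold with the Dnmt1 shRNA, all higher, and the median was 0.28, or 0.18 with bounds for dim genes and 0.04 with scaling to the median. The dipeptidase Dpep1 stood at 2.43 and Ggt7 at 1.53. Ggt5, not well above background with the empty vector, was the other, counted on its measured ratio with no fold from a bound, and is named after its value was seen. Under the ATM vector 2 of 19 were higher, 1 was lower and the median was 0.04, which turned to -0.05 with quantile normalization. Cth, which makes cysteine from cystathionine, stood at 3.76 and Chac1, which degrades glutathione, at 2.30. Oplah, a hydrolase of the same cycle, was the lower one, by at least 2.13-fold.

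In the aryl hydrocarbon receptor battery, which includes Nqo1, 0 of 8 genes were at least 2-fold different with the Dnmt1 shRNA and the median was 0.02, or -0.22 with scaling to the median. Cyp1a2 alone of 7 genes passed 2-fold with the ATM vector, lower by at least 2.34-fold, and the median was -0.11. Of 19 other antioxidant enzymes 0 were at least 2-fold different with the Dnmt1 shRNA, and 0 were higher and 2 lower with the ATM vector. The 2 were the extracellular superoxide dismutase Sod3 at -2.30 and the plasma selenoprotein Selenop at -1.46, and the medians were -0.13 and 0.25. With scaling to the median, the Dnmt1 shRNA medians were -0.38 for the NRF2 target genes, -0.32 for the regulators, -0.37 for the other antioxidant enzymes and -0.29 for the other peroxidases.

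**Figure D4:**
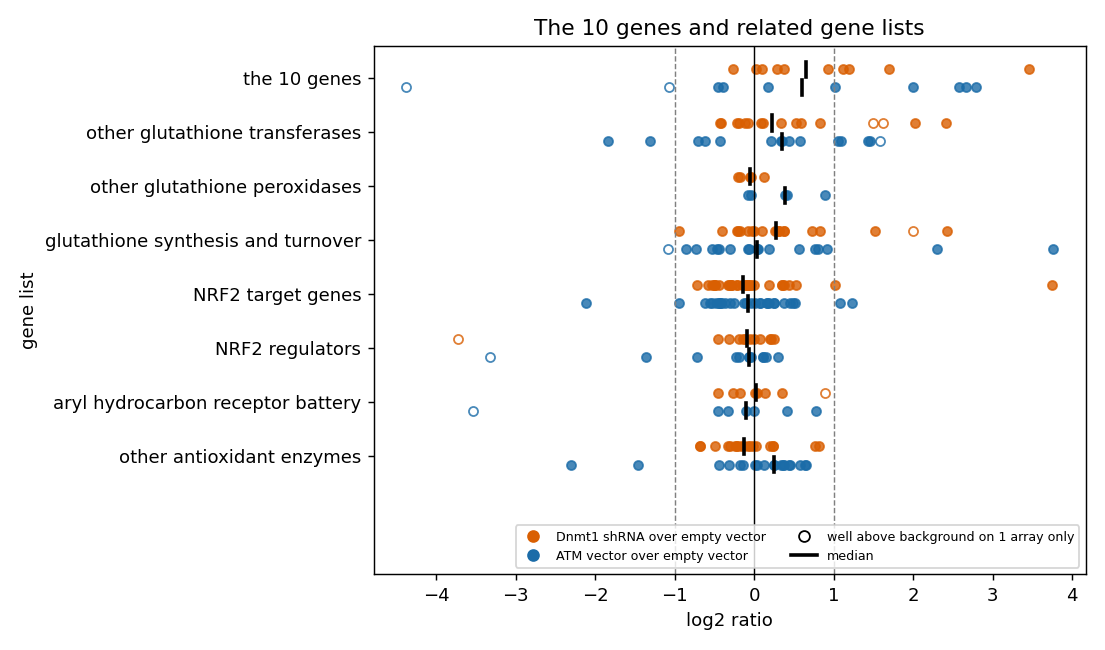
Log2 ratio over the empty-vector array (horizontal axis) of each measured gene of the 10 genes and of 7 related lists, with the Dnmt1 shRNA array above the array labelled ATM vector in each row, black bars for medians and dashed lines at 2-fold. Open points are well above background on 1 array of the pair only; the medians of the 10 genes lie at 0.65 and 0.60 and those of the NRF2 target genes at -0.14 and -0.07.

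Fibroblast markers were well above background for 13 of 13 genes with the Dnmt1 shRNA, 12 with the ATM vector and 12 with the empty vector. Some of them differed strongly between the arrays. Thy1 was dim with the empty vector and at least 36.2-fold higher with the Dnmt1 shRNA. Fap was dim with the ATM vector and at least 23.8-fold lower there than with the empty vector. With the Dnmt1 shRNA Fap stood at -1.11 (log2). Lum stood at 1.31 with the Dnmt1 shRNA and -3.21 with the ATM vector, and Dcn at 0.72 and -1.10. S100a4 stood at 0.06 and 1.76, so markers of this list differed in both directions. Over the 13 genes the median was 0.06 with the Dnmt1 shRNA and 0.18 with the ATM vector. Col1a1 stood at 0.13 with the Dnmt1 shRNA and 0.22 with the ATM vector, and Vim at -0.04 and 0.18.

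Markers of tissues known for alpha-class transferases and Gpx3 differed between the arrays. Of 10 hepatocyte markers, 5 were well above background with the Dnmt1 shRNA, 2 with the ATM vector and 3 with the empty vector, with summed signals of 4297, 1810.5 and 2042. Alb, Apoa1, Fgb, Hnf4a and Ttr were dim on every array. Ahsg, a secreted liver glycoprotein, read 2292 with the Dnmt1 shRNA, 8.94 (not well above background) with the ATM vector and 109 with the empty vector, the same order as Gpx3, and was singled out after its values were seen. Trf and Afp were well above background with the Dnmt1 shRNA only. Trf was at least 8.23-fold higher there than with the empty vector. Afp read 33.3 there, under the detection level of the empty-vector array, so no fold can be given for it. Serpina1a stood at -0.20 (log2) with the Dnmt1 shRNA and 1.28 with the ATM vector, and Apoa2 at -0.37 and -0.50. Summed signals add unscaled values of different probes, so the brightest genes set them. Most of the hepatocyte sum came from Ahsg and Apoa2 with the Dnmt1 shRNA and from Apoa2 on the other arrays. The brighter Apoa2 probe read 2947 with the Dnmt1 shRNA, 2619 with the ATM vector and 3304 with the empty vector.

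Of 9 epithelial markers, 7 were well above background with the Dnmt1 shRNA and 4 on each of the other arrays, with summed signals of 6700.2, 5585 and 5593. Most of these sums came from Krt19, which read 4094 with the Dnmt1 shRNA, 899 with the ATM vector and 5351 with the empty vector, and from Krt14, which read 296, 4491 and 78.3. The keratin Krt18 read 1341 with the Dnmt1 shRNA and was not well above background elsewhere, while Epcam and Cldn4 were dim on every array. Of 6 markers of the kidney proximal tubule, 3, 4 and 3 were well above background, with summed signals of 26091, 181063 and 47445 for the Dnmt1 shRNA, the ATM vector and the empty vector. Nearly all of each sum was the water channel gene Aqp1, at 25909, 180516 and 47261. Cubn stood at 0.17 (log2) with the Dnmt1 shRNA and 0.44 with the ATM vector, and Slc34a1 at 0.04 and -0.07. Lrp2 was well above background with the ATM vector alone, at 347, and Slc5a2 and Umod on no array. The part of other cell types in the levels of the 10 genes was not tested.

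Macrophage and blood markers were well above background for 2, 3 and 3 of 6 genes on these arrays, adipocyte markers for 0, 0 and 1 of 5, smooth muscle markers for 5, 5 and 4 of 6 and endothelial markers for 2, 2 and 2 of 4. Hbb-bh1, an embryonic globin, was dim with the Dnmt1 shRNA and the empty vector and read 2049.7 with the ATM vector. The other macrophage and blood markers were not higher with the ATM vector. Cd14 stood at 0.26 (log2) with the Dnmt1 shRNA and -1.05 with the ATM vector, and Csf1r at 1.03 and -0.36. The 3 probes of Csf1r differed with the Dnmt1 shRNA, at 1.73, -0.05 and 1.42, by more than the spread between probes of one gene. Ptprc was well above background with the empty vector only, and Adgre1 and Lyz2 were dim on every array. Actg2, a smooth muscle actin, read 18337 with the Dnmt1 shRNA, 67598 with the ATM vector and 2935 with the empty vector. Other smooth muscle markers differed less. Cnn1 stood at 0.71 (log2) with the Dnmt1 shRNA and 1.74 with the ATM vector, Acta2 at 0.32 and 0.62, and Tagln at -0.003 and -0.31. Des was dim with the empty vector and at least 2.81-fold and at least 6.95-fold higher in these comparisons. Myh11 was dim on every array.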

How the data were processed

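RNA of 3 samples was measured on 3 one-colour (Cy3) Agilent arrays, 1 per group, grouped by the transfection label. The authors deposited scanner files, and the submitters' processing notes name Agilent Feature Extraction, version 10.7.3.1. The processed signal is a linear intensity with background and a spatial trend subtracted within each array, per the file headers, and no scaling between arrays is recorded. The other deposited columns used are marks of 0 or 1 per spot (well above background, saturated, outlier), per the file headers. The deposited series matrix holds the same intensity values, within 0.495%, on a linear and uncentred scale, with column medians of 80.4 (Dnmt1 shRNA), 68.6 (ATM vector) and 75.2 (empty vector).

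Control spots and outlier spots (235, 167 and 228 on the Dnmt1 shRNA, ATM vector and empty-vector arrays) were left out, and 0 spots were saturated. Spots of a probe were averaged on the log2 scale, and each array was centred on its 75th percentile. A gene's ratio is the mean over those of its probes that were well above background on 1 or both arrays compared, and it is counted at a measured ratio of at least 2-fold. Of 39429 probes, 26406 matched 1 gene symbol by unversioned accession, 0 several and 13023 none (GRCm38.p6). The array was designed on mm9, so coordinates on GRCm38.p6 are given only with the RefSeq promoter sequences, and the gene table served for names and gene order. All 10 genes are named. From each of 7 lists up to 3 genes with the largest ratio in each comparison are named, with bounds for dim genes, besides chromosomal neighbours and the genes most alike. The genes and lists were chosen with earlier results of these data known. The ratio step was tested on simulated data with the same background marks on all 3 arrays. Bounds for genes dim on 1 array were therefore not covered by that test. Python 3.11.15, numpy 2.4.6, pandas 2.3.3, R 4.3.3 and limma 3.58.1 (normexp only) were used. The number of arrays limits the precision.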

Additional observations from a re-analysis of the deposited data

How the results depend on the processing

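No paired analysis was possible because each group has 1 array. The slide could not be used as a block, since the array labelled ATM vector is alone on its slide. Over 9 alternatives no ratio called at 2-fold turned its sign, and 159 values of single genes among the 10 stayed within the spread between probes while 17 moved past it. Scaling to the median left 2 of the 10 genes at least 2-fold higher with the Dnmt1 shRNA, in place of 4, because Gsta2 (0.96) and Gsta4 (0.89) dropped under the limit. The median of the 10 was then 0.41, and over all genes 1175 were higher and 611 lower, in place of 1486 and 432. Requiring signals well above background on all 3 arrays removes Gsta3 and Gpx3. It left 2 genes higher with the Dnmt1 shRNA (median 0.33) and 0 lower with the ATM vector (median 1.51). Over all genes it left 460 higher and 109 lower with the Dnmt1 shRNA, and 921 higher and 702 lower with the ATM vector. Counting every probe gave 1139 genes lower with the Dnmt1 shRNA. Normexp correction was run on the median spot signal, since the files hold no mean signal. It gave 582 genes higher and 102 lower with the Dnmt1 shRNA, and 890 higher and 792 lower with the ATM vector, with 1 of the 10 lower, at an offset of 50. With it Gpx3 had a bound of 3.08-fold and a measured log2 ratio of -1.74 with the ATM vector, and Gsta3 had 1.24-fold and -0.31. With the Dnmt1 shRNA the log2 ratio under normexp was 2.93 for Gpx3 and 1.10 for Gsta3. The cause of these differences was not tested. Quantile normalization, kept outlier spots, a common detection level, the brightest probe and the series matrix left the counts within 1.5 times of those given. With the Dnmt1 shRNA, Gsta4 stood at 0.999 under quantile normalization and at 0.93 under normexp correction. Each of these left 3 of the 10 genes at least 2-fold higher. Signal over background limits Gsta3 and Gpx3 with the ATM vector to bounds.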
